A study of Bos taurus with 6 samples.

Results

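EGR1, EGR2, EGR3, KLF2, KLF4, KLF6, KLF9, NR4A1, NR4A2 and NR4A3 are genes of transcription factors that many cells induce soon after a stimulus, and they were followed here in cultured stromal cells of the bovine ovary. The members were chosen by gene symbol, and all 10 were found among 18010 genes measured, each with 1 probe set. Messenger RNA was measured by microarray in 3 samples of stromal fibroblasts from ovarian tumor and 3 from normal ovary. Both groups were grown in the same serum-containing DMEM/F12 medium with no specific treatment, and the labels name neither the kind of tumor nor the animals. Levels are log2 expression values, so a difference of 1 is a 2-fold difference, and differences are tumor minus normal. Samples are called by group and replicate number, as tumor 1 or normal 3.

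The EGR proteins bind GC-rich DNA through C2H2 zinc fingers, and growth factors and serum induce EGR1 within minutes through the ERK kinases, ternary complex factors and SRF. The Krüppel-like factors (KLF) share a related zinc finger domain at their C terminus, and several of them restrain division or steer differentiation. The NR4A proteins are nuclear receptors that can act without a bound ligand, so that their activity depends in part on their amount. They are induced by cAMP, calcium and growth factors, and their activity was not measured here. In the ovary, EGR1 and NR4A1 are known as early responders to luteinizing hormone.

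Tumor cells had more mRNA of EGR1, EGR2, KLF4 and NR4A1 than normal cells. KLF4 rose 4.62-fold, NR4A1 4.47-fold, EGR1 3.07-fold and EGR2 1.98-fold. Thus 4 of the 10 members were called higher in limma at an adjusted p of 0.05, where 8.56% of all genes were. The members were chosen with earlier results of these data known, so this share is a description and not independent evidence. None was called lower, at an adjusted or an unadjusted p of 0.05 (0 of 10 in limma), where 9.44% of all genes were called lower. The median difference of the 10 members was 0.90, against 0.02 over all genes. In 5 of the 10 members every tumor sample lay above every normal sample, where 17.6% of all genes had such groups. In 0 of the 10 every tumor sample lay below every normal sample, where 18.1% of all genes had such groups. With normal 1 left out, 7 members were called higher. With tumor 1 or normal 3 left out the number was 3, and with normal 2, tumor 2 or tumor 3 left out it was 2. With normal 3 left out, 1 member was called lower. Separate animals or cultures are not named for the samples of a group, so the p-values reflect sample-to-sample spread that may be technical. In bulk RNA, fewer cells that express a gene and less RNA per cell cannot be told apart.

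**Figure D1:**
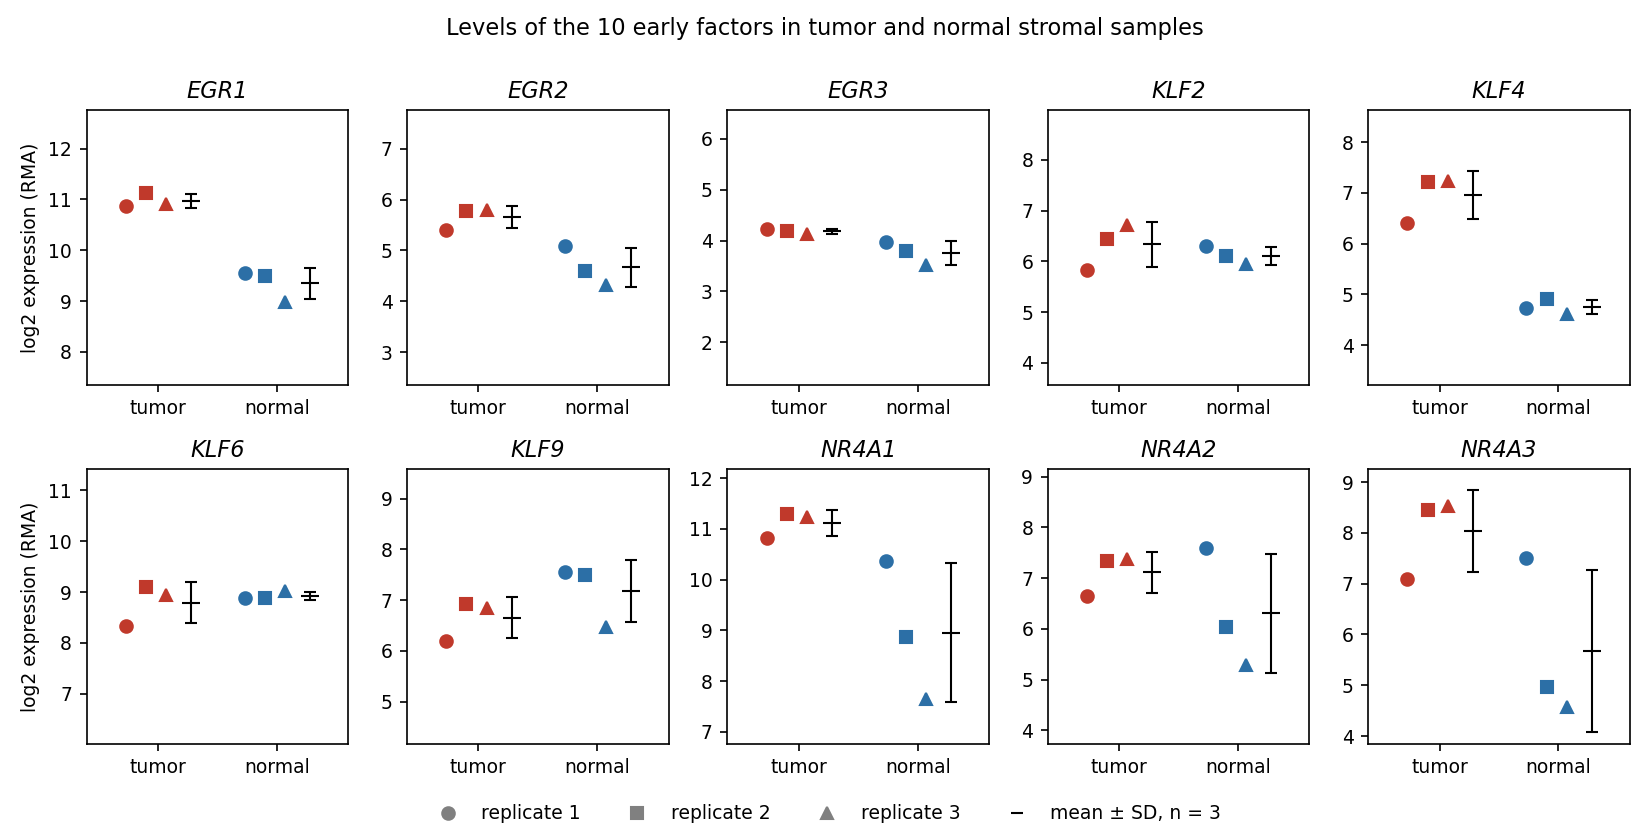
Log2 expression of each early factor in the 3 tumor samples (red) and the 3 normal samples (blue), with marker shapes for replicates and black bars for the mean ± SD (n = 3). All panels span the same number of log2 units; the groups stand apart most clearly for EGR1 and KLF4, and the NR4A genes spread widely among normal samples.

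The cells carried the RNA of fibroblasts, beside that of some genes listed as smooth muscle or theca markers. COL1A1, the main fibrillar collagen chain, stood at 11.95 ± 0.06 in tumor and 11.94 ± 0.10 in normal cells (SD, n = 3 each), and DCN, the proteoglycan decorin, at 12.27 ± 0.05 in tumor and 11.87 ± 0.21 in normal cells. PTPRC, the pan-leukocyte antigen CD45, was at 2.32 ± 0.12 in tumor and 2.37 ± 0.11 in normal cells, and EPCAM, an epithelial adhesion molecule, at 2.03 ± 0.16 in tumor and 1.96 ± 0.05 in normal cells. Both lay under 3.54, a guide to background given by the 95th percentile of olfactory receptor genes, as did PECAM1 of the endothelium in tumor cells (3.47 ± 0.09), which was at 3.82 ± 0.27 in normal cells. Yet markers above that level in at least 1 group numbered 5 of 9 leukocyte, 7 of 10 endothelial and 6 of 10 epithelial markers. So did 7 of 10 pericyte and smooth muscle and 5 of 10 granulosa and theca markers. EMCN of the endothelium was at 8.88 ± 0.49 in tumor and 7.19 ± 0.23 in normal cells, KRT18, a simple keratin, at 4.36 ± 0.16 in tumor and 7.14 ± 1.08 in normal cells, and CD68 of macrophages at 6.41 ± 0.31 in tumor and 5.26 ± 0.09 in normal cells; these were chosen after their values were seen. Of 10 epithelial markers, 3 fell in tumor cells, with list means of 3.62 to 3.65 in tumor and 3.92 to 4.38 in normal samples. Of 10 pericyte and smooth muscle markers 3 rose and 2 fell, with list means of 5.66 to 6.43 in tumor and 5.64 to 5.77 in normal samples. Among them DES was at 10.79 ± 0.47 in tumor and 11.88 ± 0.11 in normal cells. TAGLN was at 10.67 ± 0.13 in tumor and 10.74 ± 0.22 in normal cells. HSD3B1, of the granulosa and theca list, was at 9.49 ± 0.18 in tumor and 7.31 ± 0.41 in normal cells. DES, TAGLN and HSD3B1 were also picked after their values were seen. Of 10 endothelial markers 2 rose (list means 4.07 to 4.13 in tumor, 3.68 to 3.88 in normal), of 9 leukocyte markers 1 rose (3.54 to 3.67 in tumor, 3.27 to 3.48 in normal), and of 10 granulosa and theca markers 2 rose and 1 fell (4.31 to 4.92 in tumor, 3.90 to 4.16 in normal). Of 11 fibroblast markers 3 rose and 0 fell in limma (5 higher and 1 lower at an unadjusted p of 0.05). Their list means were 10.50 to 10.84 in tumor and 9.55 to 10.22 in normal samples. Those that rose were S100A4 (8.74 ± 0.35 in tumor, 5.28 ± 0.77 in normal), PDGFRA (10.32 ± 0.17, 9.43 ± 0.385) and COL3A1 (11.66 ± 0.09, 11.06 ± 0.22). The calls of PDGFRA and COL3A1 were each lost without tumor 1 or tumor 2. VIM, not called, was at 11.79 ± 0.11 in tumor and 12.08 ± 0.03 in normal cells. TIE1 among the endothelial and ABCC9 among the pericyte markers called higher were under the olfactory receptor level in both groups. Of the 17 marker calls, 9 were lost with at least 1 sample left out. The part of these shifts in the results on the early factors was not tested.

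EGR1, the founding zinc finger factor of its family, was measured at 10.87, 11.12 and 10.91 in tumor samples and at 9.55, 9.50 and 8.99 in normal samples. The groups were separated by 1.32 log2 units, more than the range within either. EGR1 rose by 1.62 ± 0.17 (SE, adjusted p = 0.000963, limma with Benjamini-Hochberg adjustment), and 258 of all genes had a larger difference upward. The call was kept under all 16 alternatives run, with adjusted p from 0.000166 to 0.0063.

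EGR2, known from hindbrain patterning and myelination, was measured at 5.40, 5.77 and 5.79 in tumor samples and at 5.08, 4.59 and 4.33 in normal samples. The groups did not overlap, but normal 1 came within 0.32 of the lowest tumor sample. EGR2 rose by 0.99 ± 0.21 (SE, adjusted p = 0.0154). Its call was lost without normal 2 (adjusted p = 0.0613), tumor 2 (0.0599) or tumor 3 (0.0519), over a range of 0.0018 to 0.0613 for all alternatives.

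EGR3, known for its role in muscle spindle development, was dim, at 4.22, 4.19 and 4.13 in tumor samples and 3.97, 3.79 and 3.51 in normal samples. Its levels did not overlap, yet all lay near the olfactory receptor level of 3.54, and normal 3 was under it. The difference was 0.42 ± 0.14 (SE, adjusted p = 0.0758), with a 95% interval of 0.10 to 0.75 that is not adjusted for the number of genes. It passed the threshold without normal 1 (0.53, adjusted p = 0.0393) and with array weights (adjusted p = 0.0251), over a range of 0.0251 to 0.181 for all alternatives.

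KLF4, known for reprogramming somatic cells to pluripotency and for epithelial differentiation, was measured at 6.41, 7.22 and 7.24 in tumor samples and at 4.74, 4.90 and 4.61 in normal samples. The normal samples lay within 0.29 of each other, and the lowest tumor sample stood 1.51 above the highest of them. KLF4 rose by 2.21 ± 0.23 (SE, adjusted p = 0.000886), and 125 of all genes had a larger difference upward. The call was kept under all 16 alternatives, with differences of 2.07 to 2.48 when each sample was left out in turn.

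KLF2, a relative of KLF4 known as a flow-induced factor of endothelium and a keeper of T cell quiescence, was measured at 5.84, 6.45 and 6.71 in tumor samples and at 6.30, 6.10 and 5.94 in normal samples. The groups overlapped, since tumor 1 was the lowest of all 6 samples. The difference was 0.22 ± 0.22 (SE, adjusted p = 0.577), with a 95% interval of -0.29 to 0.73. It was 0.47 without tumor 1 and 0.032 without tumor 3, and was not called in either case.

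KLF6, induced on tissue injury and studied as a tumor suppressor, was measured at 8.33, 9.10 and 8.95 in tumor samples and at 8.88, 8.89 and 9.02 in normal samples. Normal samples lay within 0.14 of each other, inside the range of the tumor samples. The difference was -0.14 ± 0.20 (SE, adjusted p = 0.713; 95% interval -0.60 to 0.32), and its sign turned without tumor 1 (0.095, adjusted p = 0.726).

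KLF9, which glucocorticoid and thyroid hormone induce, was measured at 6.19, 6.93 and 6.84 in tumor samples and at 7.56, 7.49 and 6.47 in normal samples. Normal 3 lay between the tumor samples, while the other normal samples stood above all of them. The difference was -0.52 ± 0.32 (SE, adjusted p = 0.325; 95% interval -1.25 to 0.21). Without normal 3 it was -0.87 and just passed (adjusted p = 0.0486), against a range of 0.0486 to 0.659 over all alternatives.

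**Figure D2:**
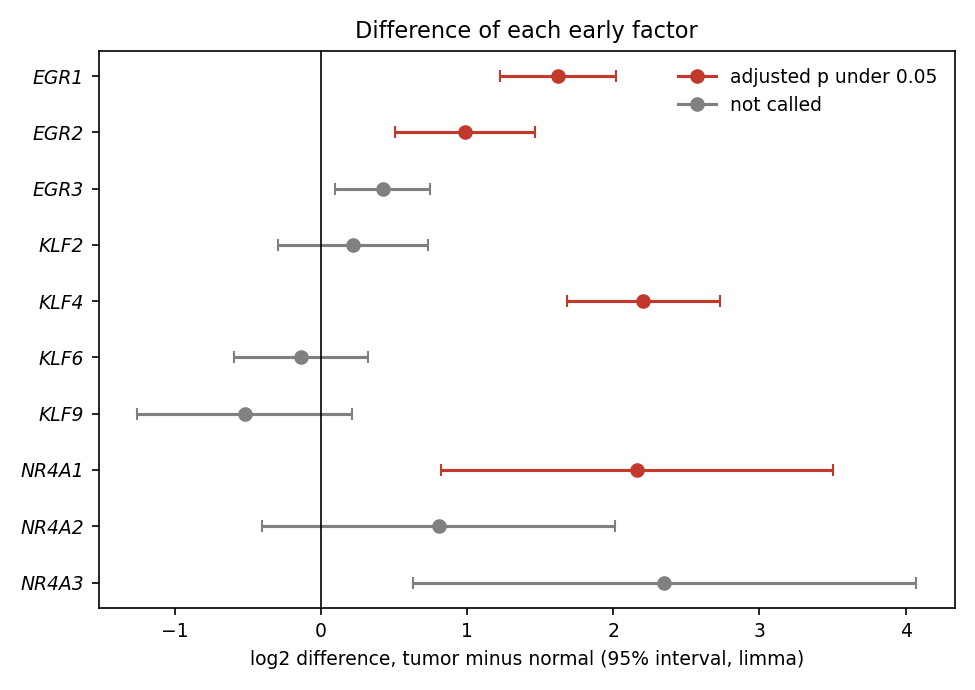
Log2 difference, tumor minus normal, of each early factor (points) with its 95% interval from limma (bars, not adjusted for the number of genes), in red where the adjusted p was under 0.05 and grey where not. The intervals of NR4A1, NR4A2 and NR4A3 are the widest, and that of NR4A3 runs from 0.63 to 4.07.

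NR4A1 (Nur77) was measured at 10.82, 11.30 and 11.23 in tumor samples and at 10.36, 8.87 and 7.64 in normal samples. Normal 1 came within 0.46 of the lowest tumor sample, while normal 3 was 2.72 below normal 1. NR4A1 rose by 2.16 ± 0.58 (SE, adjusted p = 0.038). The call was lost without normal 2 (adjusted p = 0.112), normal 3 (0.0514), tumor 1 (0.0789), tumor 2 (0.113) or tumor 3 (0.1). Without normal 1 the difference was 2.86 (adjusted p = 0.0032).

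NR4A2 (Nurr1), known for the development of midbrain dopamine neurons, was measured at 6.64, 7.33 and 7.37 in tumor samples and at 7.59, 6.04 and 5.29 in normal samples. Normal 1 was the highest of all 6 samples, and the other normal samples were the lowest. The difference was 0.81 ± 0.52 (SE, adjusted p = 0.355; 95% interval -0.40 to 2.01). Without normal 1 it was 1.45 and passed (adjusted p = 0.018), while it was 0.30 without normal 3 (adjusted p = 0.734).

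NR4A3 (NOR1) was measured at 7.10, 8.46 and 8.53 in tumor samples and at 7.51, 4.96 and 4.57 in normal samples. The groups overlapped only through tumor 1 and normal 1, which stood 0.41 apart in the direction opposite to the group means. The difference, 2.35 ± 0.74 (SE), was the largest of the 10 members but was not called (adjusted p = 0.0664; 95% interval 0.63 to 4.07). It was 3.27 without normal 1 (adjusted p = 0.00396) and passed with array weights (2.915, adjusted p = 0.00651), over a range of 0.00396 to 0.199 for all alternatives.

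**Figure D3:**
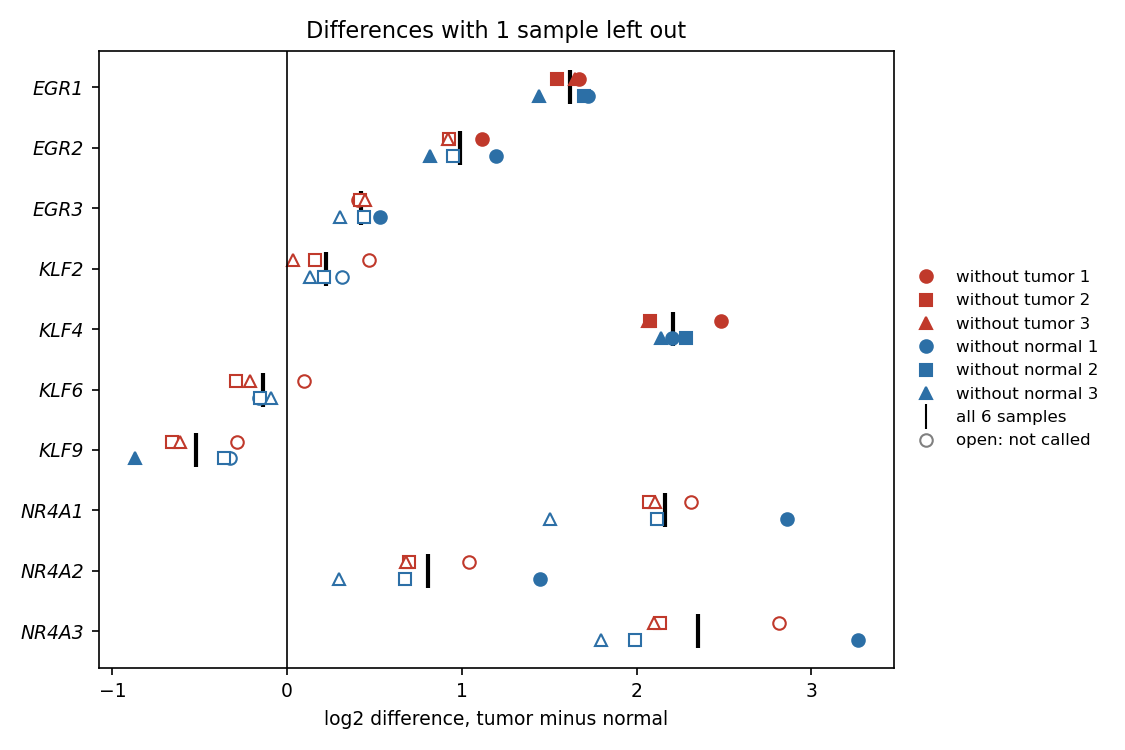
Log2 difference, tumor minus normal, of each early factor with each sample left out in turn (red, a tumor sample left out; blue, a normal sample left out; open where the adjusted p was 0.05 or more), beside the difference over all 6 samples (black bar). EGR1 and KLF4 stay filled throughout, and the NR4A genes move farthest right without normal 1.

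The NR4A genes had the widest spread among normal samples. Their standard deviations in normal cells were 1.36 for NR4A1, 1.17 for NR4A2 and 1.60 for NR4A3, against a median of 0.16 over all genes, and the share of all genes with one as large was 0.139% for NR4A1, 0.283% for NR4A2 and 0.0611% for NR4A3. In tumor cells the standard deviation was 0.26 for NR4A1, 0.41 for NR4A2 and 0.81 for NR4A3, against a median of 0.15. Whether the spread differed between the groups was not tested. All 3 genes had the same order of normal samples, with normal 1 highest and normal 3 lowest.

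That order was common to most members. Normal 1 was the highest normal sample for 8 of the 10 members, where it was for 35.7% of all genes, and normal 3 was the lowest for 9 of 10, where it was for 39.0% of all genes. The members with another sample at the top were KLF4 and KLF6, and KLF6 alone did not have normal 3 at the bottom. Tumor 1 was the lowest tumor sample for 9 of 10 members, all but EGR3, where it was for 33.1% of all genes. Among 20 AP-1 and other immediate early genes, tumor 1 was the lowest tumor sample for 15, normal 1 the highest normal sample for 12 and normal 3 the lowest for 11. These counts describe single samples and carry no test, and members measured in the same sample are not independent.

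By the root mean square difference of their levels over the 6 samples, each gene centred on its own mean, NR4A1 and NR4A3 were each other's nearest member (0.46 log2 units). KLF2 and KLF6 were likewise nearest to each other (0.26), and EGR1 had EGR2 as its nearest (0.36). Among all genes, the nearest to KLF4 were PLCL1, a phospholipase C-like protein (0.15), DAAM2, a formin (0.22), and RIPOR3 (0.23), where the median over all genes was 1.14. PLCL1 and DAAM2 were under the olfactory receptor level in normal cells, so their normal values may be background readings. The nearest to EGR1 were CREBRF (0.11), ITM2C (0.13) and ARSA, the lysosomal arylsulfatase A (0.13), with a median of 0.84. The nearest to NR4A1 were MERTK, a receptor tyrosine kinase that takes part in the uptake of dying cells (0.20), SLC2A3, the glucose transporter GLUT3 (0.27), and CCBE1, a secreted protein of lymphatic growth (0.30), with a median of 1.34. MERTK was measured at 6.28, 6.47 and 6.19 in tumor samples and at 5.44, 4.35 and 3.0 in normal samples. As for NR4A1, normal 1 was the highest and normal 3 the lowest of its normal samples, an order that the choice by likeness favours. Likeness over 6 samples in 2 groups rests mainly on the group difference and on single samples.

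Most relatives of the early factors were not called. Of 22 measured EGR, KLF and SP genes that are not members, 2 rose, 2 fell and 18 were not called, with a median of 0.16. Over all genes 8.56% were called higher and 9.44% lower, the shares that stand beside this and each following list. KLF10 (0.87 ± 0.20, SE), a TGF-beta-induced factor, and KLF11 (0.60 ± 0.13) rose, and the repressor KLF12 fell (-0.82 ± 0.17), as did SP2 (-0.50 ± 0.13), which was under the olfactory receptor level in both groups. KLF10 was measured at 9.06, 9.61 and 9.61 in tumor samples and at 8.83, 8.53 and 8.31 in normal samples, again with tumor 1 and normal 1 nearest to each other. The calls of KLF10 and KLF11 were each lost without normal 2, normal 3 or tumor 2, that of KLF10 also without tumor 3 and that of KLF11 without tumor 1 (adjusted p of 0.0516 to 0.0764). That of KLF12 was lost without normal 2 (adjusted p = 0.0574) and that of SP2 without any 1 sample (0.0505 to 0.0874). The number that rose was 0 without tumor 2 or normal 3 and 1 without tumor 3 or normal 2, and 1 fell with any 1 sample left out but normal 2, without which 0 fell in limma. EGR4, a further member of its family, was under the olfactory receptor level in every sample, at 2.72, 3.04 and 2.80 in tumor and 2.57, 2.81 and 2.42 in normal samples.

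Of 20 other immediate early genes measured, 12 rose and 0 fell in limma (14 higher and 0 lower at an unadjusted p of 0.05), where 8.56% of all genes were called higher, with a median of 0.86 against 0.02 over all genes, and 9 to 11 rose with 1 sample left out. FOSB (3.55 ± 0.35, SE) and FOS (2.27 ± 0.18), subunits of AP-1, rose, as did ZFP36 (2.63 ± 0.32), whose product speeds the decay of AU-rich mRNAs. FOS was measured at 9.56, 10.03 and 9.48 in tumor samples and at 7.60, 7.46 and 7.21 in normal samples. These genes had no overlap between groups, and their calls held with each sample left out. The list was likewise chosen with earlier results of these data known.

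Most signaling components upstream of EGR1 were not called, as most genes were not. Of 15 measured genes of the ERK cascade, ternary complex factors and SRF cofactors, 0 rose in limma (4 higher at an unadjusted p of 0.05), 1 fell and 14 were not called, with a median of 0.02. Over all genes, 8.56% were called higher and 9.44% lower, and 2681 of 18010 were higher at an unadjusted p of 0.05. The groups did not overlap for 7 of the 15, with tumor above normal in 4 and below in 3. Over all genes the shares were 17.6% above and 18.1% below. Whether the counts differ from these shares was not tested. Without tumor 1, 1 rose. The one that fell was NRAS (-0.66 ± 0.12, SE), a RAS GTPase. Of 13 phosphatases and inhibitors listed as limits on ERK signaling, some of which act mainly on other MAP kinases, 3 rose and 2 fell, with a median of 0.51. DUSP10 (2.68 ± 0.15), a phosphatase of p38 and JNK, SPRY1 (1.82 ± 0.19), a Sprouty inhibitor, and DUSP1 (0.88 ± 0.17) rose. DUSP6, the cytoplasmic ERK phosphatase, fell (-0.99 ± 0.22), a call lost without normal 2 (adjusted p = 0.0678), and SPRY4 fell (-0.82 ± 0.21), a call lost without tumor 1 or 3 or normal 1 or 2 (adjusted p of 0.076 to 0.102). Without normal 1, 5 of the 13 rose.

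Of 16 other genes of the cAMP and CREB arm, which drives NR4A transcription, 4 rose and 1 fell, with a median of 0.04. PPARGC1A (1.42 ± 0.21, SE), a coactivator that CREB induces, PRKACB (0.71 ± 0.12), a catalytic subunit of protein kinase A, and SIK1 (0.86 ± 0.20), a kinase that restrains CREB coactivators, rose. PRKAR2B, a regulatory subunit of protein kinase A, fell (-1.76 ± 0.20). The call of SIK1 was lost without normal 2 or 3 or tumor 2 or 3 (adjusted p of 0.0546 to 0.0807), and 2 of the 16 rose without normal 2, normal 3 or tumor 2. PPARGC1A was under the olfactory receptor level in normal cells. Of 11 genes of the MEF2 and MAPK7 arm 2 rose and 0 fell in limma (3 higher and 0 lower at an unadjusted p of 0.05), the class IIa deacetylases HDAC9 (1.26 ± 0.20) and HDAC7 (0.54 ± 0.11), with a median of 0.12. HDAC7 lost its call without tumor 1 or 2 or normal 2 (adjusted p of 0.0532 to 0.0689).

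Of 14 corepressors and dimer partners measured, 0 rose in limma (0 at an unadjusted p of 0.05) and 1 fell, with a median of -0.04. NAB2, a corepressor that EGR factors induce and that curbs them in turn, was measured at 6.37, 6.28 and 6.16 in tumor samples and at 6.68, 6.66 and 6.07 in normal samples, a difference of -0.20 ± 0.18 (SE, adjusted p = 0.524). NAB1 differed by 0.09 ± 0.17 (adjusted p = 0.79). NAB1 and NAB2 were singled out after their values were seen. TRIM28 fell (-0.55 ± 0.13), a call lost without tumor 1 or 2 or normal 2 or 3 (adjusted p of 0.0545 to 0.0768).

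Among 12 receptors and targets of glucocorticoid, progesterone and thyroid hormone, which induce KLF9, 4 rose and 2 fell, with a median of 0.48. The glucocorticoid receptor NR3C1 (1.15 ± 0.17, SE) and the thyroid hormone receptor THRB (0.64 ± 0.19) rose, as did the progestin and glucocorticoid target ZBTB16 (0.55 ± 0.13). The progesterone receptor PGR (-1.96 ± 0.19) and the kinase gene SGK1 (-0.98 ± 0.22) fell, PGR to under the olfactory receptor level. THRB lost its call without any 1 sample but normal 1 (adjusted p of 0.0652 to 0.154). ZBTB16 lost its call without tumor 1 or 3 or normal 2 or 3 (0.0569 to 0.0946), and SGK1 without any 1 tumor sample or normal 2 (0.0514 to 0.0824). The number that rose was 1 without tumor 1 or normal 3, and 2 without tumor 2, tumor 3 or normal 2; 1 fell without any 1 tumor sample or normal 2.

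Genes known in other settings as targets of the early factors differed in both directions, and the lists name targets reported in other cells and species. The lists do not mark which targets are induced and which are repressed, so a direction alone does not tell the activity of a factor. Over all genes, 2681 of 18010 were higher and 2891 lower at an unadjusted p of 0.05 in limma. Whether the counts of targets differ from the shares over all genes was not tested. The target lists were also chosen with earlier results of these data known, so their counts are not independent evidence. Of 19 EGR1 targets that are not members, 6 rose and 0 fell in limma (9 higher and 3 lower at an unadjusted p of 0.05), with a median of 0.27, and 1 fell without tumor 3. They include the growth factor gene IGF2 (6.25 ± 0.26, SE), the prostaglandin E synthase gene PTGES (2.99 ± 0.66) and the protease inhibitor gene TIMP3 (1.92 ± 0.27). PTGES was measured at 9.21, 8.87 and 8.09 in tumor samples and at 7.41, 5.18 and 4.62 in normal samples, with normal 1 the nearest to them. The PTGES call disappeared without tumor 1 or 2 or normal 2 (adjusted p of 0.0646 to 0.0733). COL1A1, often described as an EGR1 target, differed by 0.01 ± 0.11 (adjusted p = 0.977).

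Of 14 KLF2 or KLF4 targets, 3 rose and 2 fell, with a median of 0.05. ALPL (6.53 ± 0.19, SE), an alkaline phosphatase, PIR (1.94 ± 0.33) and CDKN1A (1.47 ± 0.22), the cell cycle inhibitor p21 that KLF4 is known to induce, rose. Of all genes, 1 had a larger difference upward than ALPL and 2 had a larger one than IGF2 of the EGR1 targets. The sphingosine phosphate receptor S1PR1 (-2.22 ± 0.27), a KLF2 target in lymphocytes, and the mitotic cyclin CCNB1 (-1.59 ± 0.23) fell. CDKN1A was measured at 9.92, 9.84 and 10.58 in tumor samples and at 8.56, 8.94 and 8.42 in normal samples, with no overlap, and these 5 calls held with each sample left out.

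Of 12 KLF6 or KLF9 targets, 3 rose and 2 fell, with a median of 0.08. ATF3 (1.79 ± 0.31, SE), also in the list of other immediate early genes, rose along with CDKN1A, which the preceding list also holds. The receptor gene TGFBR2 rose too (0.71 ± 0.19), a call lost without any 1 sample but normal 1 (adjusted p of 0.0774 to 0.123). The hyaluronan synthase HAS2 (-4.67 ± 0.35), which in tumor cells lay under that background level, and the urokinase gene PLAU (-2.31 ± 0.22) fell. Of 14 NR4A targets, 3 rose and 0 fell in limma (3 higher and 0 lower at an unadjusted p of 0.05), with a median of 0.04. Over all genes 8.56% were called higher and 9.44% lower. CCND2, a D cyclin, rose by 1.82 ± 0.28. CYP17A1, of androgen synthesis, rose by 2.31 ± 0.62, a call lost without tumor 2 or any 1 normal sample (adjusted p of 0.0766 to 0.0987), and TXNDC5 by 0.44 ± 0.11, a call lost without any 1 sample (0.0625 to 0.0844). Accordingly 1 of the 14 rose without tumor 2 or any 1 normal sample.

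**Figure D4:**
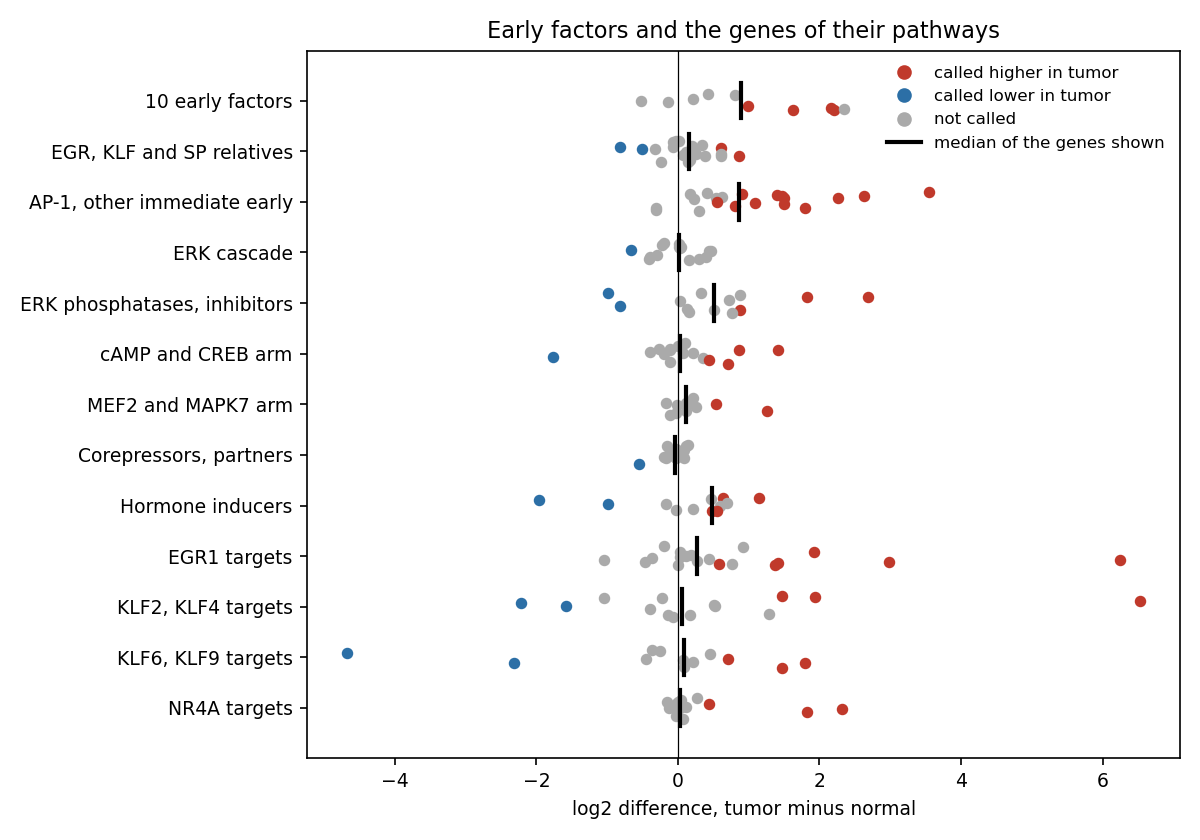
Log2 difference, tumor minus normal, of the 10 early factors and of the other genes of 12 lists around them (points; red, called higher in tumor; blue, called lower; grey, not called), with the median of each row as a black bar. The medians of the early factors (0.90) and of the other immediate early genes (0.86) lie farthest right, and those of the ERK cascade (0.02) and the corepressors (-0.04) lie near 0.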

How the data were processed

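Biotin-labelled RNA of 6 samples, grouped by their titles, was hybridised to microarrays. The deposited unit is log2 expression by RMA, per the submitters' processing notes, a method of background correction, quantile normalization and probe summary. The RMA version and the genome build were not given in the sources used here. Without scan dates, batches were not examined. The table holds 24415 probe sets. Gene symbols are those of the platform annotation, which may be outdated; 18457 probe sets carried 1 symbol, 688 several and 5270 none here. The Entrez identifiers of all 10 members are in the RefSeq table of assembly ARS-UCD2.0. Where a gene had several probe sets, the brightest on average over the 6 samples stood for it. Levels of different genes are not ranked against each other, since probe sets differ in brightness. They are set against the olfactory receptor level as a guide and averaged within lists.

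Tumor and normal samples were set against each other by the moderated linear model of limma 3.58.1 (R 4.3.3), two-sided and without covariates, over 18010 genes with Benjamini-Hochberg adjustment and a threshold of 0.05. On simulated data for this comparison, with 50 genes changed at each size among 18010, the recovery was 6% for a log2 difference of 0.5, 72% for 1, and 98% for both 2 and 3, beside 3 false calls. The changed genes were drawn from all genes, whose median standard deviation was 0.15 in tumor and 0.16 in normal samples. For the members these medians were 0.41 and 0.35, so the recovery need not hold for them. The number of arrays limits the precision. The members and the 12 lists of other genes and 6 marker lists were chosen with earlier results of these data known. Genes named were all members, up to 3 called genes in each direction of each list, 3 nearest genes of the 3 called members with the largest difference, and 7 marker genes; some are left out here. The olfactory receptor level comes from 717 probe sets, and a filter on it was added after seeing the data. Alternatives were other array scalings, a filter on dim probe sets, other priors, array weights, a replicate block, other thresholds and probe set rules, and each sample left out in turn. No sequences were used.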

Additional observations from a re-analysis of the deposited data

How the results depend on the processing

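With 3 samples a group, single samples decided several calls. Leaving out each sample in turn gave differences of 0.82 to 1.19 for EGR2, 0.30 to 0.53 for EGR3, 0.032 to 0.47 for KLF2, -0.29 to 0.095 for KLF6, -0.87 to -0.29 for KLF9, 1.502 to 2.86 for NR4A1, 0.30 to 1.45 for NR4A2 and 1.80 to 3.27 for NR4A3, with 2 to 7 members called higher and 0 to 1 lower. KLF6, not called, was the member whose sign turned (0.095 without tumor 1). EGR1, KLF2 and KLF4 kept their direction and side of the threshold in all 16 alternatives. Array weights called EGR3 (0.40) and NR4A3 (2.915). The causes were not tested. Over all genes 3242 were called, against 5054 with array weights, 1765 without normal 2, 1887 without tumor 2 and 1968 without tumor 1.

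The labels do not say whether the replicate numbers pair the samples. Deviations from the group means of same-numbered samples correlated at 0.05, -0.06 and 0.07, and tumor 1 correlated best with normal 2 (0.07). These values show no pairing but, with so few samples, cannot exclude it. With the replicate block, 2895 genes were called, 3 members were called higher in place of 4, and NR4A1 stayed at 2.16 with an adjusted p of 0.0527; 1 relative fell and 1 NR4A target rose.

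For the lists, counts with 1 sample left out ran from 0 to 2 higher and 0 to 1 lower for relatives, 0 to 1 higher for the ERK cascade, 3 to 5 higher and 0 to 2 lower for its phosphatases and inhibitors, 2 to 3 higher for the cAMP arm, 1 to 2 higher for the MEF2 arm, 0 to 1 lower for corepressors, 1 to 4 higher and 1 to 2 lower for hormone genes, 4 to 8 higher and 0 to 1 lower for EGR1 targets, and 1 to 2 higher for NR4A targets. At an adjusted p of 0.01, 2 members were called higher, as were 0 relatives, 2 cAMP, 1 MEF2, 1 hormone, 3 EGR1 target and 1 NR4A target gene, with 0 relatives, 0 phosphatases and inhibitors, 0 corepressors and 1 hormone gene lower. Asking for at least 2-fold as well as 0.05 left 0 relatives, 1 cAMP, 1 MEF2 and 1 hormone gene higher, and 0 relatives, 0 ERK cascade genes, 0 phosphatases and inhibitors, 0 corepressors and 1 hormone gene lower. Array weights gave 5 relatives, 2 ERK cascade genes and 7 phosphatases and inhibitors higher, and 2 ERK cascade, 2 cAMP, 3 EGR1 target and 4 KLF6 or KLF9 target genes lower. In the ERK cascade 1 gene was called higher with quantile normalization, median centring, the dimmest probe sets left out, a mean-variance trend or the olfactory receptor filter, which also left 1 relative lower, and the trend gave 2 EGR1 targets lower.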
